A study of Mus musculus with 19 samples.

Results

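Chromatin accessibility was compared between mouse astrocyte cultures differentiated for 72 h and for 1 week, by ATAC-seq, an assay in which a transposase cuts and tags open DNA. The libraries were chosen by their labels alone, the 3 untreated libraries at 72 h and the 4 at 1 week, which makes 7 of the 19 libraries of the series. All came from neural stem cells taken from the ventricular zone of wild type C57BL/6J embryos at embryonic day 14 and grown as neurospheres (NSPs) with EGF. Differentiation was started in both groups by moving the cells to poly-L-ornithine and DMEM with fetal bovine serum, and no cytokine (TNF) was added to any of the 7 cultures. The groups therefore differ in time alone as far as the labels go, 72 h against 1 week in serum. The other 12 libraries were NSPs, cultures at 24 h, and cultures at 24 h or 72 h with TNF, and they enter here only through the shared fit and as levels beside these 2 groups. These are bulk cultures in serum, so a smaller share of cells with an open site cannot be told apart from less accessibility per cell. The labels do not say which libraries share a brain or a culture, so p-values measure the spread between these libraries, which may be technical.

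Astrocytes form from radial glia-like stem cells when Notch, STAT3 and nuclear factor I proteins open and activate glial genes, among them Gfap, which codes for an intermediate filament of astrocytes. As they mature they take up potassium and glutamate, couple to each other through gap junctions and secrete matrix and synapse-organising proteins. In culture with serum, the serum response factor Srf and the YAP-TEAD pathway are also known to drive genes of actin filaments and contraction, and reactive astrocytes raise protease inhibitors such as Serpina3n and Timp1. Open promoters tend to stay open in many cell types, while enhancers away from genes open and close with cell identity.

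Each value is the number of reads in a peak divided by a size factor for the library, here called normalised reads. The deposited values stood for 12239620 to 13137103 reads in peaks per library at 72 h, and for 22675768, 25165008, 9640256 and 18845896 in replicates 1 to 4 at 1 week. Replicate 3 at 1 week was the shallowest, with 1 read worth 2.20 normalised reads against 0.779 to 1.29 in the other 6 libraries. Spearman's rho between libraries of a group was 0.954 to 0.955 at 72 h and 0.954 to 0.978 at 1 week. These ranges alone do not show whether any library stood apart from its group. The recovered reads may not be independent fragments, since 63.8% of the values between 2 and 20 reads were odd. A peak was tested if it passed a filter on low reads, which 88919 of 90154 did, and it was called when limma-trend's adjusted p was under 0.05. A gene-end peak is one whose centre lies within 1 kb of either end of a protein-coding gene, which held for 13346 of the tested peaks.

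The 1-week cultures had many sites more open and many less open than the 72 h cultures, but which direction was more frequent depended on how libraries were scaled. With the deposited scaling 20035 peaks were higher (22.5% of those tested) and 14383 lower (16.2%) at 1 week. With the same scaling 7202 gene-end peaks were called higher (54%) and 816 lower (6.11%), but this split depended on the scaling too, with 2787 and 2136 under total reads, 5947 and 1153 under TMM and 1287 and 872 under loess. With libraries scaled to their total reads in peaks, the median of all peaks moved to -0.31 on the log2 scale, against 0.02 with the deposited values, and the calls turned to 7963 higher and 30039 lower. TMM scaling gave 15781 higher and 18621 lower, with a median of -0.09, and a loess fit, which centres the change at every height, gave 11572 and 10295. The share of calls that were higher was thus 58.2%, 21.0%, 45.9% and 52.9% under the 4 scalings. No peak was called in opposite directions by the deposited and total scalings.

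**Figure D1:**
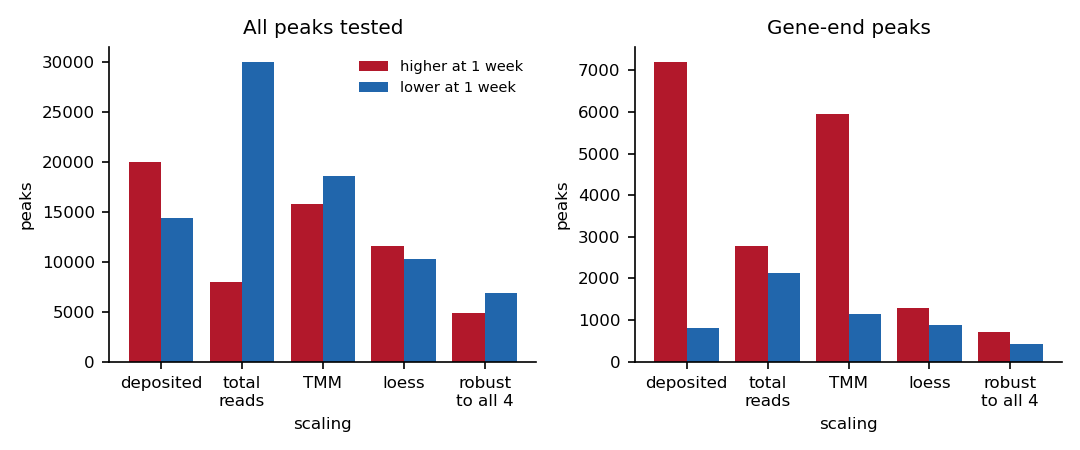
Number of peaks called higher and lower at 1 week than at 72 h (vertical axis, peaks) under each of 4 scalings, and of the peaks robust to all of them. The calls go from 20035 higher and 14383 lower with the deposited scaling to 7963 higher and 30039 lower with total reads.

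A peak was therefore taken as robust when it was called in 1 direction under all 4 scalings and when its 4 values at 1 week did not overlap the 3 at 72 h under any. Its conservative change is the smallest in size of its 4 log2 changes. Where the groups are said below to lie apart at a robust peak, this rule required it, so it adds no support. There were 4874 robust gains at 1 week (5.48% of tested peaks) and 6896 robust losses (7.76%). The median conservative change was 0.73 for gains and -0.85 for losses, and 1365 gains and 2287 losses reached 1 or more in size. The smallest were 0.14 and -0.25. Which direction was more frequent among robust peaks depended on the fit. With only the 7 compared libraries in the fit there were 5951 robust gains and 5939 losses, and with a replicate block 5652 and 5433. A robust gain had to be called with total reads too, where the median of all peaks was -0.31. The part of this rule in the excess of losses was not tested. Gene-end peaks had 720 robust gains (5.39%) and 418 robust losses (3.13%), while the 75573 peaks elsewhere had 4154 gains (5.50%) and 6478 losses (8.57%). Gene ends thus held 14.8% of gains and 6.06% of losses, beside 15% of all tested peaks. The gene-end gains dropped from 720 to 457 without replicate 1 at 72 h.

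Robust losses were rare at tall peaks. A robust loss had to be called under the deposited scaling too, where the median change of gene-end peaks was 0.39, beside 0.06 with loess. How far this rule itself lowers the share of losses at tall peaks was not tested. Where the mean over all libraries was at least 512 normalised reads, 7.58% of gene-end peaks were robust gains and 0.13% robust losses, and elsewhere 13.0% and 2.52%. Between 64 and 128 normalised reads the order turned, with 1.70% gains and 9.11% losses at gene ends and 4.24% and 11% elsewhere. Within each of the 5 height ranges both gains and losses away from gene ends were more frequent than at gene ends, except that losses under 64 normalised reads were 7.11% at gene ends and 6.07% elsewhere. By distance to a gene end, losses were 3.13% within 1 kb and 8.12% to 8.75% in the 4 ranges beyond it, and gains were 5.39% within 1 kb and 4.36% to 7.02% beyond it. Peaks inside protein-coding genes had 4.87% gains and 7.92% losses, and peaks outside them 6.18% and 7.56%.

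**Figure D2:**
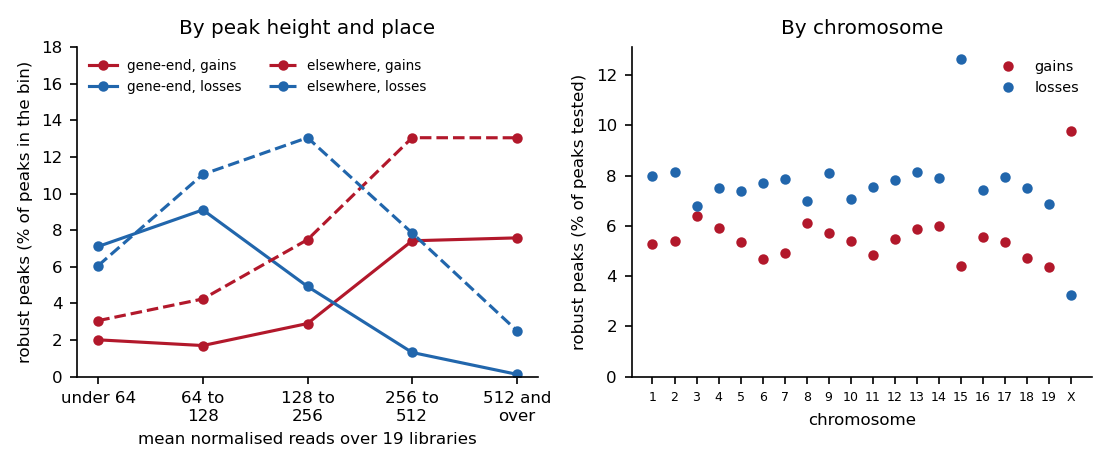
Left, the share of tested peaks that were robust gains or losses at 1 week (percent) against their mean height over all libraries (normalised reads), at gene ends (solid) and elsewhere (dashed), and right, the same shares by chromosome. Losses fall to 0.13% in the tallest gene-end peaks, chromosome 15 has the largest share of losses (12.6%) and chromosome X the largest share of gains (9.78%).

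Genes of actin filaments, contraction and the YAP-TEAD pathway had the highest median change at their ends of all the lists examined, and all their robust gene-end peaks were gains. Of 20 genes in the list 18 had a gene-end peak, 17 of these were called higher and 0 lower, and 8 were robust gains with 0 robust losses. The median log2 change of the list was 0.77 with the deposited scaling, 0.43 with total reads, 0.67 with TMM and 0.66 with loess. Over all 12984 genes with a gene-end peak it was 0.44, 0.10, 0.33 and 0.06. Of all these genes 62.1% were called higher and 4.21% lower with the deposited scaling, and 5.78% were robust gains and 2.21% robust losses. Leaving out 1 library at a time gave 7 to 8 robust gains in the list. Within the spans of its genes and 5 kb around them, 15 of 133 peaks were robust gains (11.3%) and 5 robust losses (3.76%). Over all tested peaks these shares were 5.48% and 7.76%. Among the losses in these spans were peaks at Myh9, Tead1, Wwtr1 and Yap1.

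The peak at Myl9 (chr2:156775065-156775565), the gene of a regulatory light chain of myosin, held 443, 441 and 496 normalised reads in the 3 libraries at 72 h and 1027, 941, 1116 and 922 in the 4 at 1 week. All 4 libraries at 1 week lay above all 3 at 72 h, as the rule for robust peaks requires. The log2 change was 1.12 ± 0.11 (SE, limma-trend adjusted p = 5.53e-08), with a conservative change of 0.72. At Tpm1 (chr9:67049113-67049613), which codes for the actin-binding protein tropomyosin, the values were 144, 173 and 159 against 384, 402, 312 and 409, a log2 change of 1.24 ± 0.17 (SE, limma-trend adjusted p = 2.40e-06). The related Tpm2 (chr4:43524172-43524672) went from 70.8, 89.7 and 77.8 to 146, 178, 176 and 125, a log2 change of 0.96 ± 0.20 (SE, limma-trend adjusted p = 3.98e-04). Neither pair of groups overlapped, which the rule also required. At Tagln (chr9:45935759-45936259), whose product transgelin binds actin in smooth muscle, the peak was small, with 41.2, 21.5 and 34.4 at 72 h and 97.9, 81.8, 121 and 63.3 at 1 week. Here the spread at 1 week was wide but the groups stayed apart, as required, and the log2 change was 1.47 ± 0.35 (SE, limma-trend adjusted p = 0.00152).

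Among regulators of these genes, Tead1 and Tead4 had robust gains as well, while Yap1, Wwtr1 and Mrtfa were not robust at their gene ends. The peak near Srf (chr17:46546118-46546618) held 107, 122 and 141 normalised reads at 72 h and 254, 235, 246 and 242 at 1 week, a log2 change of 0.99 ± 0.15 (SE, limma-trend adjusted p = 1.05e-05). That peak lies inside Cul9, whose end is nearer, so it cannot be assigned to Srf alone. Tead1 and Tead4 code for the DNA-binding partners of YAP. At Tead1 (chr7:112679251-112679751) the values were 176, 226 and 217 against 458, 446, 369.7 and 521, a log2 change of 1.11 ± 0.17 (SE, limma-trend adjusted p = 1.19e-05), and at Tead4 (chr6:128300251-128300751) they were 359, 331 and 369.6 against 704, 650.0, 742 and 672, a log2 change of 0.97 ± 0.12 (SE, limma-trend adjusted p = 1.07e-06). Ccn1 (chr3:145649773-145650273), a secreted matrix-associated protein and a well-known YAP target, had 400.2, 367 and 326 and 705, 759.8, 713 and 697, a log2 change of 0.98 ± 0.13 (SE, limma-trend adjusted p = 1.22e-06). In all 4 of these peaks every library at 1 week was above every library at 72 h, as the rule for robust peaks requires. Not all the list followed: the peak of Acta2, smooth muscle actin, had a log2 change of -0.17 and was not called. Yap1 (0.41), Ccn2 (0.43), Cnn1 (0.60) and Wwtr1 (0.69) were called higher with the deposited scaling but were not robust. The changes at Mrtfa (0.62) and Myh9 (0.68) were called with the deposited scaling and turned to -0.12 and -0.09 with loess.

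**Figure D3:**
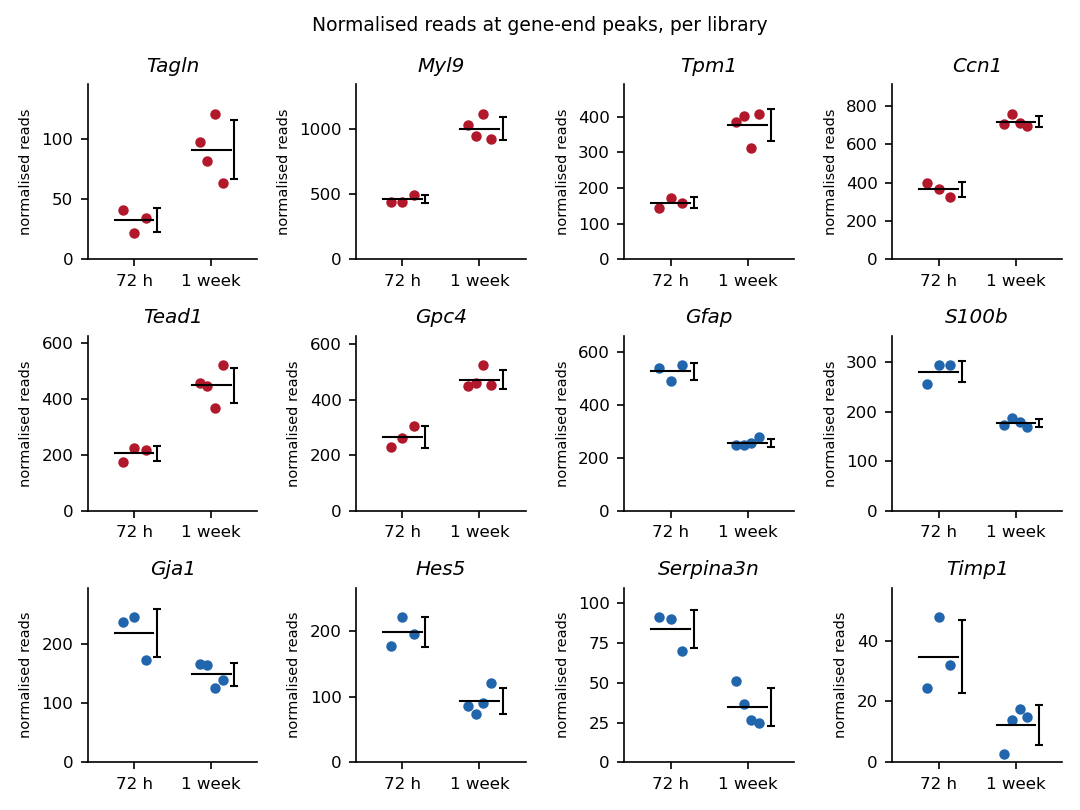
Normalised reads of gene-end peaks (vertical axis, 1 panel a gene) in each library at 72 h (3 points) and 1 week (4 points), with the mean as a line and the SD as a bar. The contractile and YAP-TEAD genes and Gpc4 are higher in every library at 1 week, and Gfap, S100b, Gja1, Hes5, Serpina3n and Timp1 are lower in every library at 1 week. All are robust peaks, for which the selection required this.

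Peaks of the classical astrocyte genes did not move in 1 direction. Gfap (chr11:102897110-102897610) was lower at 1 week, with 542, 493 and 552 normalised reads at 72 h and 248, 249, 255 and 279.9 at 1 week, a log2 change of -1.03 ± 0.21 (SE, limma-trend adjusted p = 2.64e-04). The Gfap groups lay far apart, with a conservative change of -1.03, and the mean was 108 in NSPs and 489 at 24 h. S100b (chr10:76253541-76254041), a calcium-binding protein of astrocytes, fell from 256, 294 and 294 to 173, 187, 180.4 and 170.5, a log2 change of -0.66 ± 0.14 (SE, limma-trend adjusted p = 4.18e-04), and its mean in NSPs was 562. At Gja1 (chr10:56377045-56377545), the gene of the gap junction protein connexin 43, the values were 237, 245 and 172 and 165, 164, 125 and 138. The lowest library at 72 h lay just above the highest at 1 week, and the log2 change of Gja1 was -0.55 ± 0.19 (SE, limma-trend adjusted p = 0.0232). Gpr37l1 (chr1:135167386-135167886), an astrocytic receptor, had 261, 207 and 178 and 156, 127, 169 and 136, a log2 change of -0.54 ± 0.17 (SE, limma-trend adjusted p = 0.015). Gpc4 (chrX:52165130-52165630), a heparan sulfate proteoglycan that astrocytes release, rose from 229, 262 and 306 to 449, 459.8, 524 and 454, a log2 change of 0.83 ± 0.13 (SE, limma-trend adjusted p = 9.98e-06).

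By list, the 10 of 16 transporter and channel genes with a gene-end peak had 3 called higher (30%) and 2 lower (20%), beside 62.1% and 4.21% of all genes, with 1 robust gain and 1 robust loss, Gja1. Gja1 was no longer robust without replicate 3 or 4 at 1 week or without replicate 1 or 2 at 72 h. No gene-end peak was found for Aqp4, Slc4a4, Slc14a1, Slc7a11, Gjb6 or Mlc1, so these genes were not measured in this way. Of the 17 of 19 secreted and surface genes, 8 were called higher (47.1%) and 3 lower (17.6%), with 1 robust gain, Gpc4, and 3 robust losses, Gfap, S100b and Gpr37l1. The losses were 2 without replicate 2 at 1 week or replicate 1 at 72 h, and the gains 2 without replicate 3 at 1 week. The 16 enzymes of glutamine, glycogen and energy metabolism had 11 called higher (68.8% beside 62.1% of all genes) with the deposited scaling, but 0 were robust, and their median moved from 0.43 to 0.03 with loess. Pygm of this list and Clcf1 of the secreted and surface genes were at the floor in both groups. Each had a mean of 1.25 normalised reads at 72 h and 1.23 at 1 week, so the counts include genes without a readable level. The 17 lipid transport genes had 9 called higher (52.9%), 1 lower and 0 robust at gene ends. Within the spans of the lipid transport genes and 5 kb around them, 10 of 88 peaks (11.4%) were robust losses and 0 robust gains, beside 7.76% and 5.48% of all tested peaks. The same counts were 11 losses and 3 gains of 101 for the transporters and channels, 11 and 10 of 132 for the secreted and surface genes, and 4 and 2 of 79 for the enzymes.

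Markers of reactive astrocytes were mostly lower at 1 week where they were called. Of the 13 of 18 genes with a gene-end peak, 1 was called higher (7.69% beside 62.1% of all genes) and 6 lower (46.2% beside 4.21%), and 3 were robust losses with 0 robust gains. The median was -0.44 with the deposited scaling and -0.49 with loess, and 2 to 4 robust losses were found when 1 library was left out, with 2 without replicate 1 at 1 week and without replicate 2 or 3 at 72 h. These peaks were low, with a median of 83.7 normalised reads at 72 h beside 359 over all genes. Of gene-end peaks of 64 to 128 normalised reads 9.11% were robust losses, beside 3.13% of all gene-end peaks. The part of peak height was not tested. Within the spans and 5 kb around them, 7 of 65 peaks were robust losses (10.8%) and 1 a robust gain (1.54%). Over all tested peaks these shares were 7.76% and 5.48%. Serpina3n (chr12:104406435-104406935), a serine protease inhibitor, fell from 91.4, 89.7 and 70.1 to 51.1, 36.6, 26.4 and 24.7 normalised reads, a log2 change of -1.30 ± 0.23 (SE, limma-trend adjusted p = 7.94e-05). Aspg (chr12:112106533-112107033), an asparaginase, had 157, 119.6 and 215 and 64.4, 60.8, 90.2 and 82.6, a log2 change of -1.11 ± 0.23 (SE, limma-trend adjusted p = 3.48e-04). Timp1 (chrX:20869912-20870412), an inhibitor of matrix metalloproteases, had a low peak throughout, with 24.4, 47.8 and 31.9 at 72 h and 2.65, 14, 17.6 and 15 at 1 week, a log2 change of -1.61 ± 0.40 (SE, limma-trend adjusted p = 0.00202). In each of the 3 the groups did not overlap, as the rule for robust peaks requires. The Timp1 peak lies inside Syn1, a neuronal gene, and cannot be assigned to Timp1 alone. Replicate 1 at 1 week held 3 reads there.

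Notch and progenitor genes included some clear losses, but more genes of the 2 lists were called higher than lower. With the deposited scaling Hes1 (0.47), Hey1 (0.47), Notch1 (0.43), Nes (0.49) and Vim (0.58) were called higher, and these were not robust. Hes5 (chr4:154960534-154961034), a repressor of neurogenesis that Notch induces, fell from 176, 221 and 195 to 86.4, 74, 90.2 and 121 normalised reads, a log2 change of -1.10 ± 0.15 (SE, limma-trend adjusted p = 2.78e-06). The mean of the Hes5 peak was 1976 in NSPs and 744 at 24 h, and 3 of the 4 peaks in its span were robust losses. Dbx2 (chr15:95654465-95654965), a homeobox factor, fell from 95.2, 81.3 and 77.8 to 42.3, 36.6, 50.6 and 30.0, a log2 change of -1.09 ± 0.22 (SE, limma-trend adjusted p = 2.88e-04). Mfng (chr15:78773283-78773783), which modifies Notch receptors with sugar, had a log2 change of -0.73 ± 0.16 (SE, limma-trend adjusted p = 6.26e-04), and Hmga2 (chr10:120476486-120476986), a chromatin protein of fetal progenitors, one of -0.75 ± 0.18 (SE, limma-trend adjusted p = 0.00183). Both Dbx2 and Mfng lie in the distal part of chromosome 15, where robust losses were more frequent than on the other autosomes. Among 26 glial transcription factors with a gene-end peak 12 were called higher (46.2%) and 3 lower (11.5%), beside 62.1% and 4.21% of all genes, with 0 robust gains and 2 robust losses, Hes5 and Dbx2. Among 15 progenitor genes the counts were 7 (46.7%) and 3 (20%), with 0 robust gains and 2 robust losses, Mfng and Hmga2.

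Gene ends of the proliferation list had a median change close to that of all genes, and 3 robust gains. All 20 genes of the list had a gene-end peak, and 15 (75%) were called higher beside 62.1% of all genes and 0 lower. The 3 robust gains were 15% of the list, beside 5.78% of all genes. Within the spans and 5 kb around them, 5 of 44 peaks were robust gains (11.4%) and 1 a robust loss (2.27%). Over all tested peaks these shares were 5.48% and 7.76%. Cdk1 (chr10:69352737-69353237), the kinase that drives entry into mitosis, rose from 465, 492 and 461 to 730.0, 733, 768 and 769 normalised reads, a log2 change of 0.67 ± 0.10 (SE, limma-trend adjusted p = 6.45e-06). Its partner cyclin B1, Ccnb1 (chr13:100786352-100786852), rose from 447, 396 and 423 to 672, 689, 667 and 662, a log2 change of 0.67 ± 0.10 (SE, limma-trend adjusted p = 7.22e-06), and Mcm2 (chr6:88898516-88899016), a subunit of the replicative helicase, had a log2 change of 0.69 ± 0.12 (SE, limma-trend adjusted p = 3.66e-05). The groups did not overlap in any of the 3, as the rule for robust peaks requires. The conservative changes were 0.27, 0.26 and 0.35, and the list's median was 0.54 with the deposited scaling and 0.07 with loess, beside 0.44 and 0.06 over all genes. Leaving out 1 library at a time left 1 to 3 robust gains, with 1 without replicate 1 or replicate 3 at 72 h.

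Matrix genes moved in both directions. Of 18 with a gene-end peak 6 were called higher (33.3%) and 3 lower (16.7%), beside 62.1% and 4.21% of all genes, 3 as robust gains and 2 as robust losses. The gains were Bcan (0.84), the proteoglycan brevican, Lamc1 (0.76), a laminin chain, and Adamts1 (0.70), a metalloprotease, and the losses the collagen genes Col12a1 (-0.63) and Col6a1 (-0.65), with log2 changes in parentheses. The matrix gains were 1 without replicate 1 or 2 at 72 h, and the losses 1 without replicate 2 at 1 week or replicate 2 at 72 h. Of 18 genes of cilia 7 were called higher (38.9%) and 2 lower (11.1%), the robust losses being Dnah11 (-0.40), a dynein motor of the axoneme, and Cfap54 (-0.67), a protein of motile cilia. These losses were 0 without replicate 1 at 72 h, and 1 without replicate 3 at 72 h or replicate 2 or 4 at 1 week. Genes of AP-1, the Fos and Jun factor, had 8 of 13 (61.5%) called higher with the deposited scaling, beside 62.1% of all genes, and 0 robust, with a median of 0.44, as over all genes, and 0.08 with loess, and 2 were robust gains without replicate 2 at 72 h.

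Markers of other cell types were read for the whole of each list. The summed level of 6 microglial genes was 1100.2 to 1234 normalised reads per library at 72 h and 1210.3 to 1398 at 1 week, and 10 of 16 microglial genes, Aif1, Cx3cr1, Csf1r, Itgam, Ptprc, Trem2 and Tyrobp among them, had no gene-end peak. Of the endothelial, mural and fibroblast genes 13 of 18 had none, including Pecam1, Cdh5, Cldn5, Pdgfrb, Lum and Dcn, and the sum of the other 5 was 1136 to 1209 at 72 h and 1579.7 to 1749 at 1 week. That sum rose and did not overlap between the groups, as was so for many of the other lists. For the enzymes the sum was 9249 to 9992 at 72 h and 13267 to 14715 at 1 week. For the contractile list it was 9789.8 to 11408 at 72 h and 16536 to 18813 at 1 week. Neuronal genes summed to 2089.7 to 2262 and 2124 to 2548, and oligodendrocyte genes, with Sox10, Pdgfra, Mbp and Mog lacking a gene-end peak, to 1714 to 1803 and 1791 to 2043. The part of other cells in the changes described here was not tested. For comparison, the median gene with a gene-end peak went from 359 to 481 normalised reads. Within their spans the oligodendrocyte genes had 8 robust losses (11.6%) and 0 gains among 69 peaks, and the neuronal genes 9 (9%) and 5 (5%) among 100. The endothelial, mural and fibroblast genes had 4 (8.89%) and 4 (8.89%) among 45, and the microglial genes 0 and 0 among 23. Over all tested peaks 7.76% were robust losses and 5.48% robust gains. In these 4 lists the robust calls at gene ends were losses at Neurod1 and Gpr17. Neurod1 (chr2:79456649-79457149), a factor of neuronal differentiation, had 206, 234 and 222 at 72 h and 119, 84.2, 108 and 122 at 1 week, a log2 change of -1.03 ± 0.19 (SE, limma-trend adjusted p = 8.81e-05). The peak near Gpr17, a receptor of oligodendrocyte precursors, lies inside Lims2 and held 24.4, 21.5 and 31.9 at 72 h and 11.5, 5.46, 6.60 and 1.07 at 1 week, and it was no longer robust without replicate 4 at 1 week or replicate 3 at 72 h.

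**Figure D4:**
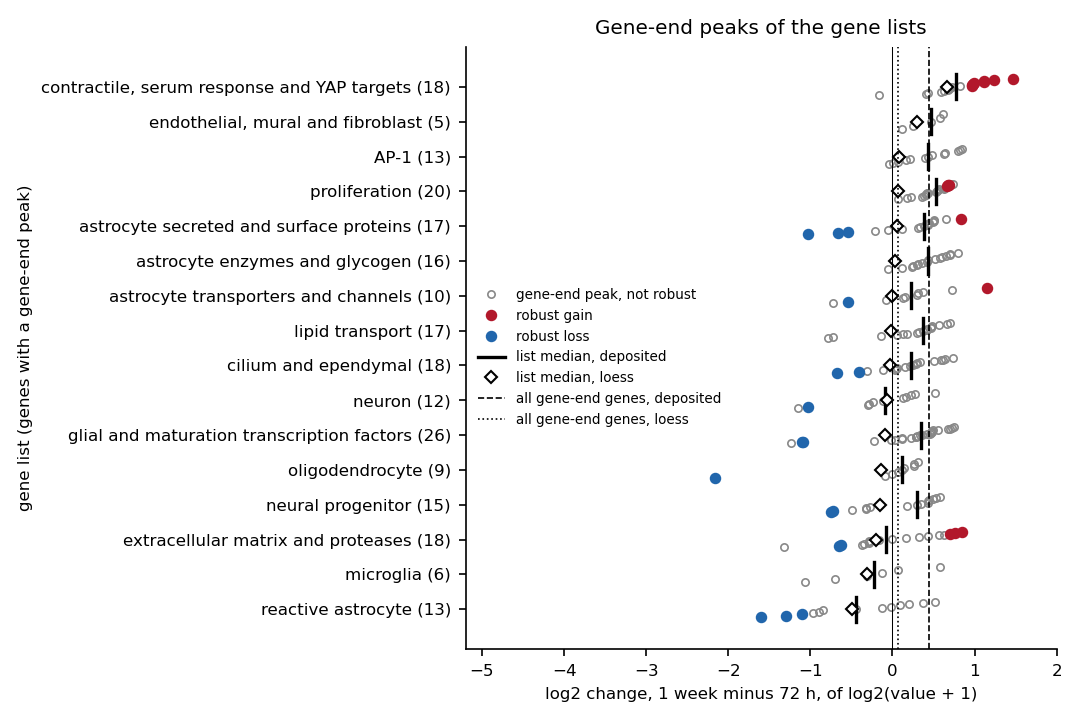
Log2 change at 1 week against 72 h (horizontal axis) of the gene-end peak of each gene in each list, with the median of each list. The contractile, serum response and YAP list has the highest median (0.77) and the reactive astrocyte list the lowest (-0.44), beside 0.44 over all genes with a gene-end peak.

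Genes that the study named for astrocytes, cell cycle, metabolism or transcription factors were chosen by its authors partly on these samples, so they are no independent evidence of a direction. Of 31 such genes 21 had a gene-end peak, 11 called higher (52.4%) and 3 lower (14.3%), beside 62.1% and 4.21% of all genes. The robust ones were Ccnb1, Gfap and Gja1. Ccnb1 was no longer robust without replicate 1 or 2 at 1 week or replicate 2 or 3 at 72 h. Kcnj10 (chr1:172340836-172341336), the potassium channel Kir4.1 of astrocytes, held 775, 833 and 888 normalised reads at 72 h and 1298, 1438, 1448 and 1335 at 1 week. The log2 change at Kcnj10 was 0.73 ± 0.10 (SE, limma-trend adjusted p = 2.44e-06) with the deposited scaling and 0.18 with loess, so it was not robust. The glutamate transporter genes Slc1a2 and Slc1a3 had log2 changes of -0.08 and 0.29. Cd44, a hyaluronan receptor, had one of 0.11, and Mki67, a marker of cycling cells, one of 0.39. Ugp2, Pygb and Ppp1r3c, of glycogen metabolism, had 0.60, 0.36 and 0.31, and Ppp1r3c turned to -0.03 with total reads and -0.21 with loess. Smad3, which carries TGF-beta signals, had 0.70 and the immediate early gene Egr1 0.44, which turned to -0.20 with loess. At Rbpj, the DNA-binding factor of Notch, the peak was low, with 38.6, 39.5 and 37 at 72 h and 28.2, 26.5, 2.20 and 29 at 1 week. Replicate 3 at 1 week held 1 read there. The Rbpj peak was called lower with the deposited scaling (log2 change -1.24, limma-trend adjusted p = 0.0366) but was not robust.

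All 8 of the leading gains, and 7 of the 8 leading losses, lay away from gene ends, the other loss being at an end of Lrrc1. A peak inside Palld (chr8:61773589-61774089), the gene of the actin-bundling protein palladin, rose from 20.6, 7.18 and 6.37 to 109, 111, 134 and 117 normalised reads, a log2 change of 3.44 ± 0.34 (SE, limma-trend adjusted p = 3.99e-08). A peak inside Slc24a3 (chr2:145283684-145284184), a sodium-calcium exchanger, rose from 14.2, 3.59 and 8.92 to 125, 104, 108 and 93.3. A further peak far from any gene, with the end of Esp23 nearest (chr17:39205006-39205506), rose from 9.01, 16.7 and 14 to 194, 164, 308 and 180.1. All 3 were low at 72 h and, as robust peaks must be, apart from it in every library at 1 week. Further leading gains lay inside Tcerg1l, Ptprk and Abcd3 and near Cntnap5a, with conservative changes of 3.17, 2.98, 2.95 and 3.00.

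Among the leading losses, a peak inside Wnt3 (chr11:103804127-103804627), a secreted ligand of the Wnt pathway, fell from 73.3, 78.9 and 37 to 10.6, 10.9, 4.40 and 11.8 normalised reads, a log2 change of -2.62 ± 0.29 (SE, limma-trend adjusted p = 1.37e-07), with 2 reads in replicate 3 at 1 week. The peaks inside Cdk14, Arhgap18, Piezo2 and Hydin and near E2f3 and Golga7b were close to the floor at 1 week, so that only levels are given. They held 19.3 to 34.4 normalised reads at 72 h and 1.07 to 2.34 at 1 week for Cdk14, a kinase of the cyclin-dependent family. For Piezo2, a mechanically gated channel, they held 22.7 to 31.9 and 0.882 to 4.29, and for Hydin, a protein of motile cilia, 20.4 to 35.9 and 0.882 to 6.43. Levels in this range rest on few reads per library.

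At gene ends, the leading gains included Heg1 (chr16:33683275-33683775), a receptor of vessel and heart development, which rose from 108, 89.7 and 77.8 to 342, 334, 438 and 341 normalised reads, a log2 change of 1.98 ± 0.25 (SE, limma-trend adjusted p = 1.13e-06). Its mean in NSPs was 7.61. Msx2 (chr13:53472582-53473082), a homeobox factor downstream of BMP signals, was low and rose from 9.01, 21.5 and 10.2 to 46.7, 46.8, 41.8 and 51.5, a log2 change of 1.80 ± 0.31 (SE, limma-trend adjusted p = 5.03e-05). Chl1 (chr6:103510667-103511167), a cell adhesion molecule of the L1 family, rose from 43.8, 25.1 and 29.3 to 97.9, 117, 117 and 102, a log2 change of 1.73 ± 0.25 (SE, limma-trend adjusted p = 5.09e-06). The groups were apart in all 3, as robust peaks must be. The other 7 were at Csta3, LOC108167368, Gm19470, Pan3, Ppt1, Wdr5b and Scrn1, with conservative changes of 2.08, 1.91, 1.63, 1.49, 1.48, 1.48 and 1.36. Of the 10 leading losses at gene ends, 1 was at an end of Dlx2 (chr2:71542837-71543337), a homeobox factor of forebrain neurons and interneurons, with 135, 109 and 148 at 72 h and 22, 27.3, 41.8 and 44 at 1 week, a log2 change of -1.96 ± 0.32 (SE, limma-trend adjusted p = 2.60e-05). The mean of that Dlx2 peak was 14.2 in NSPs and 34.8 at 24 h, while the tallest gene-end peak of Dlx2, which the lists count, had a log2 change of 0.17. The others were at Lrrc1, Ccl25, Tmem104, Aldh1a7, Cct6b, Fam189b, Ada, Itih5l-ps and Zmat5, with conservative changes of -2.32, -1.82, -1.78, -1.74, -1.67, -1.65, -1.62, -1.61 and -1.60.

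Some genes gathered many robust peaks of 1 direction within their span and 5 kb around it. Shroom3, whose product binds actin and shapes epithelial cells, had 10 gains and 1 loss among 38 peaks. Wwc1, the gene of KIBRA, an upstream regulator of YAP, had 9 gains and 0 losses among 18, the largest change among them going from 130.0, 173 and 179.7 to 429, 415, 440.1 and 405 normalised reads. Slit3, a guidance ligand, had 9 gains and 2 losses among 33, Macf1, a linker of actin and microtubules, 7 and 1 among 37, and Ergic1, a protein of the secretory pathway, 6 and 0 among 16. In the other direction, Nav2, a neuron navigator protein, had 3 gains and 15 losses among 72 peaks, and Septin9, a cytoskeletal GTPase, 0 and 10 among 33, the largest change among them going from 116, 129 and 119.8 to 26.5, 44.4, 41.8 and 65.4. Gse1 had 1 gain and 11 losses among 56, Ptprt, a receptor phosphatase, 2 and 11 among 40, and Iqsec1, an exchange factor for Arf GTPases, 1 and 9 among 35. Long genes hold more peaks, so these counts stand beside 5.48% gains and 7.76% losses over all tested peaks. Rbms3, with 6 and 0 among 37, tied with Macf1, and Prkag2, with 0 and 8 among 28, with Iqsec1.

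The promoters of 6 genes with robust gene-end peaks are shown because they carry the gains (Myl9, Ccn1 and Cdk1) and the losses (Hes5, Gja1 and Timp1). Each is the 250 bases before the annotated start from RefSeq (GRCm38.p6), 5′ to 3′ on the strand of the gene, and capitals mark matches on either strand to the CArG box, which Srf binds, AP-1 (TGANTCA), the CCAAT box (CCAAT), the TEAD site (GGAATG), the TATA box (TATAAA) and the CHR element of cell cycle genes (TTTGAA). The windows lie at chr2:156775214-156775463 (plus strand) for Myl9, chr3:145649986-145650235 (minus) for Ccn1, chr10:69352913-69353162 (minus) for Cdk1, chr4:154960673-154960922 (plus) for Hes5, chr10:56377050-56377299 (plus) for Gja1 and chrX:20869916-20870165 (plus) for Timp1.
Myl9: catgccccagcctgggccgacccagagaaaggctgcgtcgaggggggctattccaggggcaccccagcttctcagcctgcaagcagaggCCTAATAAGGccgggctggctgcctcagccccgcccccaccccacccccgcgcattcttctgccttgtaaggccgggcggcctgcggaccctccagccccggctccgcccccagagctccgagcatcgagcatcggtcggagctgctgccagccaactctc
Ccn1: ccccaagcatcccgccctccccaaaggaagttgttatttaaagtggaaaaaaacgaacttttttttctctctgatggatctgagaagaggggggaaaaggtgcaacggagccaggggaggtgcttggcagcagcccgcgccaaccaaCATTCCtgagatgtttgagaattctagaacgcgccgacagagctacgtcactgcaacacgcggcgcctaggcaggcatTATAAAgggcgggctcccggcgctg
Cdk1: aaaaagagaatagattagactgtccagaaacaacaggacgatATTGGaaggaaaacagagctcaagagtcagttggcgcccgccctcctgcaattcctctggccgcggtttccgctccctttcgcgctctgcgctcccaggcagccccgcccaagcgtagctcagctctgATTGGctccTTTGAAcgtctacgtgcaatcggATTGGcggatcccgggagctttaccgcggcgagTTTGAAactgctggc
Hes5: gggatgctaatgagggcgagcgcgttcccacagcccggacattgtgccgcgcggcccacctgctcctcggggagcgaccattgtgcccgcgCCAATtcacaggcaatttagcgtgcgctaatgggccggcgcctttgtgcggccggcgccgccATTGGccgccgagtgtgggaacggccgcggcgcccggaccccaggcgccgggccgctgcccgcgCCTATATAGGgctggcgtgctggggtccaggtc
Gja1: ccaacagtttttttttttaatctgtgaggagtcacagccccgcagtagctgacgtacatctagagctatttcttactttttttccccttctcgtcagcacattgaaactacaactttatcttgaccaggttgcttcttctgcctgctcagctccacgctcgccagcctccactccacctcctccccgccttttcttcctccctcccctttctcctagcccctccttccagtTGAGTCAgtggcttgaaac
Timp1: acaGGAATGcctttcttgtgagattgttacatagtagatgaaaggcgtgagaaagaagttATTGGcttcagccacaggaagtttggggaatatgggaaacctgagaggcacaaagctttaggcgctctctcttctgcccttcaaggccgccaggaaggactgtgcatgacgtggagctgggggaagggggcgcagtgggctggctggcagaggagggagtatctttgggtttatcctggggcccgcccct

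Counted back from the start, a CArG box lay at bases 161 to 152 of Myl9 and at 33 to 24 of Hes5, a gain and a loss. Ccn1, a gain, had a TEAD match at 103 to 98 and TATAAA at 25 to 20, and Timp1, a loss, had a TEAD match at 247 to 242. Cdk1 had CHR matches at 71 to 66 and 15 to 10 and CCAAT, on the opposite strand, at 208 to 204, 80 to 76 and 48 to 44. Gja1 had an AP-1 match at 19 to 13. A match describes the letters in this window and does not show binding.

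Across promoters, 9070 of the 12984 genes with a gene-end peak were matched to an annotated start within 1 kb of the peak centre, and 544 of these had robust gains and 151 robust losses. Windows of 300 bases, 250 before to 50 after the start, were searched on both strands for 18 motifs, of which the CArG box was added after the list values had been seen. AP-1 stood in 3.49% of gained promoters, 9.93% of lost ones and 4.15% of all 9070. The ETS site (CCGGAAG) stood in 25.9%, 1.99% and 18.4%, the cyclic AMP element (TGACGTCA) in 6.43%, 1.99% and 3.58%, and the GC box (GGGCGG) in 71.7%, 58.3% and 68.7%. TATAAA went the other way, with 5.33%, 10.6% and 6.62%. The TEAD site stood in 11%, 11.9% and 11.3%, and the CHR element in 11.6%, 11.9% and 10.9%. CCAAT, whose complement can overlap the NFI site TTGGCA, stood in 39.5%, 28.5% and 39.9%. The CArG box, a palindrome counted once, was found in 8 gained and 1 lost promoter, 1.47% and 0.662% beside 1.14% of all. Gained promoters had a median of 24 CpG and lost ones 12, against 22 over all, and a GC content of 62.7%, 59.3% and 62%. The ETS site, the cyclic AMP element and the GC box hold CpG in their letters, and the part of base composition in these shares was not tested.

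Levels in the other groups place these sites along the time course, though the 72 h and 1-week levels were fixed by the selection of the peaks. The median over the robust gains was 48.5 to 56.5 normalised reads per library in NSPs, 128 to 142 at 24 h, 146 to 153 at 72 h and 307 to 352 at 1 week. With TNF it was 150 to 156 at 24 h and 182 to 188 at 72 h. The median over the robust losses was 123 to 128 in NSPs, 104 to 105 at 24 h, 92.6 to 94.3 at 72 h and 46.2 to 48.5 at 1 week, and with TNF 98.2 to 104 at 24 h and 78.7 to 81.3 at 72 h. Over all tested peaks the median was 80.0 to 89.3 in every library. These are medians over many peaks, and single peaks did not all follow them.

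**Figure D5:**
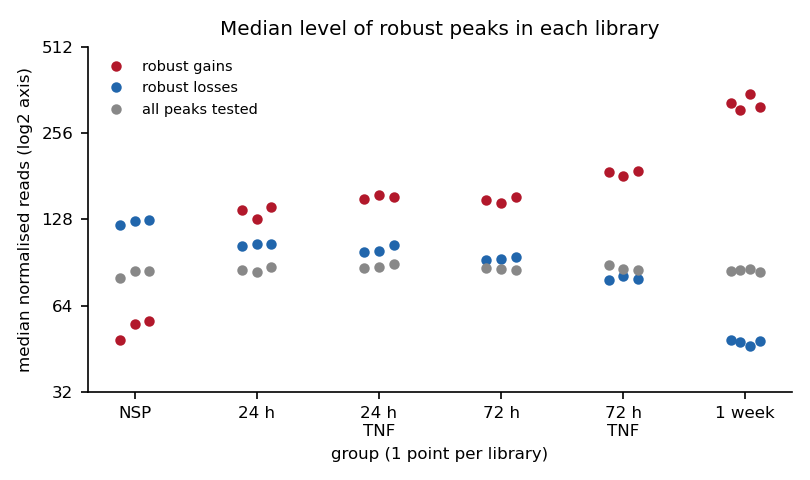
Median level (vertical axis, normalised reads) of the robust gains, the robust losses and all tested peaks in each library of each group. Gains go from 48.5 to 56.5 in NSPs to 307 to 352 at 1 week, losses from 123 to 128 to 46.2 to 48.5, and the 72 h and 1-week levels are fixed by the selection.

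Chromosomes 15 and X stood apart from the other 18 autosomes, where 4.38% to 6.41% of peaks were robust gains and 6.79% to 8.15% robust losses. On chromosome 15 12.6% were losses and 4.41% gains. Beyond 70 Mb, a boundary chosen after the values were seen, 357 of 2159 peaks were losses (16.5%) and 44 gains (2.04%), while of the 1968 before it 165 were losses (8.38%) and 138 gains (7.01%). On chromosome X 9.78% were gains and 3.26% losses. In each library at 1 week the distal part of chromosome 15 lay 0.16 to 0.17 below the autosomes and X lay 0.13 to 0.19 above, as median log2 differences from the mean of the 72 h libraries, while the 72 h libraries themselves lay within -0.02 to 0.02. Dbx2, Mfng, Timp1 and Gpc4 lie in these regions, Gpc4 and Timp1 on X. Why these chromosomes differ was not tested.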

How the data were processed

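Nuclei of the cultures were tagmented and sequenced, and per the labels and the study's methods the authors used Trim Galore for trimming, Bowtie2 for alignment and MACS2 for peak calling, and dropped blacklisted regions. The submitters' processing notes name mm10. Tool versions, the handling of duplicates, any transposase offset and the scaling of the table are not given in the sources used here. The deposited signal is 1 value per peak and library, and 100% of values were whole multiples of the value of 1 read, with no value under 1 read. It therefore holds scaled reads, and the SEs given come from the spread between libraries. Of the 90154 peaks 89898 were 500 bp long, and positions are as deposited.

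Because the values are not raw counts, log2(value + 1) was tested with limma-trend (limma 3.58.1, R 4.3.3) on all 19 libraries with a mean per group, which shares 1 estimate of the spread, and the 1-week and 72 h means were contrasted. Fold changes on this scale understate changes of low peaks. Peaks passed edgeR's filterByExpr (edgeR 4.0.16) with a minimum count of 10, and p-values were two-sided with Benjamini-Hochberg adjustment over 88919 peaks. The other scalings were total reads in peaks, TMM and loess. DESeq2 1.42.0 and edgeR's quasi-likelihood test on recovered reads were alternatives. The scripts were tested on simulated data with known changes.

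Gene ends came from RefSeq (GRCm38.p6), and a gene was represented by its tallest gene-end peak. Named were the 8 robust gains and 8 losses with the largest conservative change, the 10 and 10 at gene ends, list genes with a robust gene-end peak, the 5 genes in each direction with the most net robust peaks, and the genes the study named. Of these, 2 are not reported here. The comparison, members and lists were chosen with earlier results of these data known. Replicate numbers came from the titles. Same-numbered libraries of the 2 groups did not deviate together, so no pairing was used. Summaries and figures used Python 3.11.15, pandas 2.3.3, numpy 2.4.6 and matplotlib 3.10.9.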

Additional observations from a re-analysis of the deposited data

Results flagged for a closer look

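Among 87 named peaks, 5 had 1 of the 4 libraries at 1 week far from the other 3, by the gap to the nearest library relative to the range. Chance alone flags about 1 in 20 groups in this way. Replicate 3, the shallowest library, was the one apart in 4 of the 5. It held the highest value at Gpc4, 524 normalised reads against 449 to 460 in the other 3, and at Heg1, 438 against 334 to 342. It held the lowest at Wnt3, 4.40 against 10.6 to 11.8, and at Rbpj, 2.20, which is 1 read, against 26.5 to 29.0. Replicate 1 held the highest value at Adamts1, 663 against 605 to 608. The robust calls at Gpc4, Heg1, Wnt3 and Adamts1 needed all 4 libraries to lie on 1 side of the 3 at 72 h.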

How the results depend on the processing

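The counts of called peaks depended on the scaling. With total reads in peaks 7963 were higher and 30039 lower, and with loess 11572 were higher, against 20035 and 14383 with the deposited values, while TMM, recomputed median-ratio factors (18081 and 16222), edgeR (15888 and 17801) and DESeq2 (18479 and 15819) stayed within 1.5 times. All 4874 robust gains and 6896 losses were also called by edgeR. Adding quantile normalisation as a further scaling left 4467 and 6043. Gene-end losses dropped from 418 to 277 with gene ends taken within 500 bp, and gene-end gains from 720 to 457 without replicate 1 at 72 h. Leaving out 1 library at a time gave 16805 to 18702 called higher, 10729 to 14049 lower, 3832 to 4486 robust gains, 5382 to 7499 robust losses, 457 to 705 gene-end gains and 328 to 461 gene-end losses, and without replicate 3 at 1 week, the shallowest, 4442 and 7499 robust gains and losses. With the replicate number as a replicate block in a fit of the 7 libraries, 22805 were called higher, 13120 lower, 5652 and 5433 were robust, and 664 and 347 were robust at gene ends, and correlations of deviations between same-numbered libraries were -0.006, 0.008 and 0.043. Without chromosomes X and Y there were 4698 and 6732 robust peaks, and without X, Y and 15, chosen after seeing the data, 4422 and 6251. Of single peaks, Egr1 reversed to -0.20 and Myc to -0.0087 with loess, and Ppp1r3c to -0.0277 with total reads and -0.21 with loess. For the 68 robust named peaks 1319 alternative values kept direction and their call in a single fit, 11 lost that call and 0 reversed, but being robust is stricter and was lost more often, as given for Gja1, Ccnb1, Gpr17 and the lists. Peaks of few reads, as in the shallow replicate 3, limit what can be told apart.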

Other observations

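Several genes with roles in astrocytes or progenitors held robust peaks within their span and 5 kb around it, in counts that were looked up after the values had been seen and that stand beside 5.48% gains and 7.76% losses over all tested peaks. Nes, the gene of the progenitor filament nestin, had 3 gains and 0 losses among 6 peaks, and the tallest of these gains held 319 to 326 normalised reads at 72 h and 581 to 628 at 1 week, although its span borders Bcan. Gpc6, a glypican that astrocytes secrete, had 4 and 0 among 27, with a peak at chr14:117267741-117268241 that held 609 to 808 at 72 h and 1885 to 2749 at 1 week. Mertk, a receptor for engulfing debris and synapses, had 0 gains and 3 losses among 8, and Slc6a11, the GABA transporter GAT-3 of astrocytes, 0 and 4 among 15, with a peak at chr6:114188796-114189296 that held 80.1 to 115 at 72 h and 26.4 to 47.5 at 1 week. Cnp, an enzyme of myelinating cells, had 0 and 3 among 7.

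Nfia, a nuclear factor I gene that drives gliogenesis, had peaks of both kinds, 5 gains and 5 losses among 59. The gain with the largest conservative change (chr4:97609649-97610149) held 142 to 173 normalised reads at 72 h and 424 to 493 at 1 week, and the loss with the largest (chr4:97948285-97948785) held 42.1 to 78.9 at 72 h and 15.4 to 21.8 at 1 week. Gains and losses thus stood in the same gene, and the count over the gene alone does not show a direction.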
